A study of Mus musculus with 8 samples.

Results

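Interferon response genes are the genes that cells switch on when interferons bind their receptors, and 49 of them were followed here in mouse macrophages. The members were taken from a fixed list of symbols, 37 of them mainly targets of type I interferon and 12 mainly targets of interferon gamma. The list and its split into classes were chosen with earlier results of these data known. Counts of members and of classes therefore describe these data and are no independent support. A member was tested when a probe of its symbol was above background (detection p under 0.05) on 2 or more of the 8 arrays. This left 40 of the 49 members, 31 type I targets and 9 interferon gamma targets, among 12793 genes or unnamed probes tested in all. Of the 40, 32 were above background on all 8 arrays.

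The cells were bone marrow derived macrophages of C57BL/6 mice, grown in culture for 7 days with M-CSF, the growth factor that turns bone marrow cells into macrophages. There were 4 groups of 2 arrays: untreated cells, cells with 1 µM all-trans retinoic acid (ATRA, a derivative of vitamin A that binds nuclear receptors), cells with culture supernatant of the omentum (OMsup, from a fatty tissue of the abdominal cavity), and cells with ATRA+OMsup. Stimulation lasted 24 h and took place without serum, and whether untreated cells were moved to that medium too is not in the labels. Nor do these tell if separate cultures or animals gave the replicates, so p-values measure only how far these samples spread, and that spread may be technical. The comparisons asked how each agent alone, and the pair together, changed gene expression in these cells.

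Type I interferons (interferon alpha and beta) act through the receptor of IFNAR1 and IFNAR2 and the kinases JAK1 and TYK2 on ISGF3, a complex with STAT2 and IRF9 among its subunits that binds the interferon-stimulated response element (ISRE). Interferon gamma acts through IFNGR1 and IFNGR2 on genes that carry the gamma-activated site (GAS). The targets include antiviral proteins that bind or cut viral RNA, sensors of foreign nucleic acid, regulators that feed back on the pathway, GTPases that attack the vacuoles of microbes, and the machinery that loads peptides on MHC class I. Macrophages are known to keep a low level of this signalling without infection.

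Of the other 9 members, Ifit1, Ifih1, Xaf1 and Slfn5 among the type I targets and Cxcl9, Gbp5 and Iigp1 among the interferon gamma targets were above background on fewer than 2 arrays and got no test. Ifi44 and Herc6 were not analysed here. The 4 groups did not differ in how much of the array was lit, with 16116 to 16784 probes above background per array and replicate correlations across probes of 0.9905 to 0.9939. Macrophage markers were present throughout: all 7 with a probe, among them Csf1r, Adgre1 and Mertk, were above background, and their summed intensity ran from 28074 to 32159 over the arrays. Of 11 T and NK cell genes with a probe 2 (Nkg7 and Prf1) were above background on 2 arrays, with Cd3e, Cd4, Cd8a and Ncr1 among the dim ones, and of 5 mesothelial genes none was.

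All levels below are log2 values of normalized intensity, changes are differences of group means on that scale, each with its standard error (SE) from the fit, and each group has n = 2 arrays. A change passed when its p-value from limma's moderated test, adjusted by the method of Benjamini and Hochberg over all 12793 features, was under 0.05. Since the samples are bulk RNA, fewer cells of a type and less RNA per cell cannot be told apart.

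Type I interferon targets were lower in macrophages given omentum supernatant. Against untreated cells 18 of the 40 tested members fell and none rose, while 9.36% of all features passed in either direction, 4.67% as lower and 4.68% as higher. The falls were led by Ifit3, Ifit2, Rsad2, Cxcl10, Usp18 and Cmpk2, which were 3.67-fold to 8.31-fold lower. Among type I targets 16 of 31 fell, with a median change of -0.63 (-0.30 without background correction and -0.32 with the deposited normalized values), and among interferon gamma targets 2 of 9 fell, with a median of -0.21. The median over all features was -0.0039, and the median over the 40 members was -0.53, or -0.49 with Isg20 at its bound. In 24 of the 40 members both OMsup arrays lay below both untreated arrays, which was so for 24.7% of all features.

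**Figure D1:**
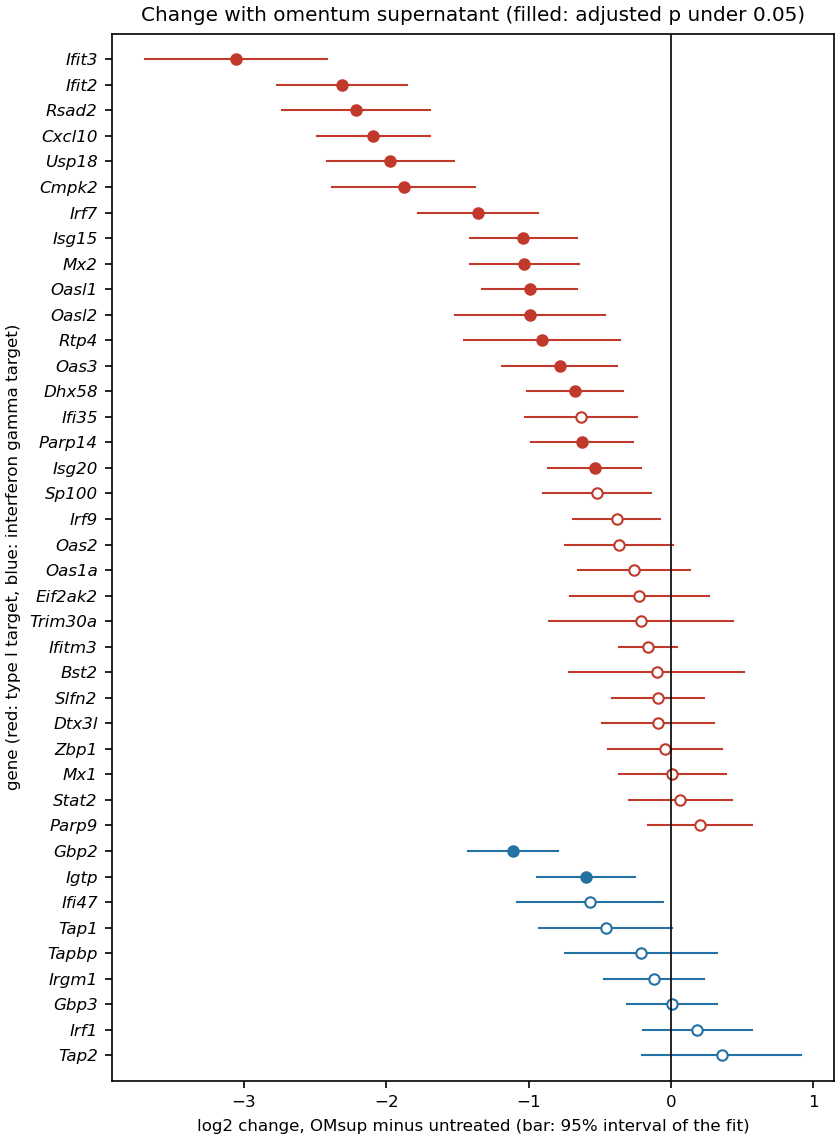
Change of each of the 40 tested interferon response genes with OMsup, as the log2 difference of OMsup minus untreated (x axis) with the 95% interval of the fit, for type I targets (red) and interferon gamma targets (blue); filled points passed at an adjusted p under 0.05. The 18 filled points all lie left of 0, from Ifit3 at -3.06 to Isg20. Isg20 is drawn at -0.54, but it was not above background with OMsup, and only its bound is given in the text.

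The antiviral effectors made up the largest group, and 9 of 16 fell with OMsup. Ifit3, a partner of the other IFIT proteins that bind foreign RNA, stood at 9.87 and 9.36 in untreated cells, 9.10 and 9.41 with ATRA, 6.07 and 7.05 with OMsup, and 6.42 and 6.22 with ATRA+OMsup. The 4 arrays with OMsup were thus all far below the 4 without it. Ifit3 fell by 3.06 with OMsup (SE 0.289, adjusted p = 6.8e-05), and a second probe of the gene fell by 1.90. Its neighbour Ifit2 stood at 8.70 and 8.45, 8.43 and 8.67, 5.98 and 6.54, and 6.37 and 6.55 in the same order of groups. Again no array with OMsup reached an array without it, and the gene fell by 2.31 (SE 0.206, adjusted p = 4.5e-05).

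Rsad2 encodes viperin, an enzyme that makes a chain terminator of viral RNA synthesis, and its level was 9.43 and 9.12 in untreated cells, 9.58 and 9.75 with ATRA, 6.66 and 7.47 with OMsup and 7.76 and 7.88 with ATRA+OMsup. It fell by 2.21 with OMsup (SE 0.234, adjusted p = 0.00015). Cmpk2, a mitochondrial nucleotide kinase encoded beside Rsad2, gave 7.90 and 7.51, 7.71 and 7.84, 5.50 and 6.16, and 6.04 and 6.09. It fell by 1.88 (SE 0.227, adjusted p = 0.00039), and as for Rsad2 the ranges with and without OMsup did not meet.

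The remaining effectors moved less. The OAS-like gene Oasl1 stood at 5.57 and 5.40, 5.44 and 5.61, 4.50 and 4.49, and 4.60 and 4.57, and fell by 0.99 with OMsup (SE 0.151, adjusted p = 0.0018). A second, dimmer probe of Oasl1 fell by 0.77 and missed the threshold (adjusted p = 0.053). Mx2, a dynamin-like GTPase, fell by 1.03, Oasl2 by 0.99 and Oas3, a synthetase of the 2'-5' oligoadenylates that activate RNase L, by 0.78. The RNA exonuclease gene Isg20 was not above background on any OMsup array and was lower by a factor of at least 1.22 (adjusted p = 0.046). Isg20 entered the test only through untreated and ATRA+OMsup arrays. Oasl1, Mx2 and Oas3 were above background on 1 of the 2 OMsup arrays, as were Rtp4 and Cxcl10 below. The changes of Oas2 (-0.37), Oas1a (-0.26), Mx1 (0.01), Bst2 (-0.10), Ifitm3 (-0.16), Slfn2 (-0.09) and Sp100 (-0.52) did not pass.

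Among the 9 regulators 4 fell. Usp18, a protease that removes ISG15 from proteins and also blocks the type I receptor, was at 8.65 and 8.51 in untreated cells, 8.26 and 8.56 with ATRA, 6.33 and 6.90 with OMsup and 7.43 and 7.46 with ATRA+OMsup. With OMsup it fell by 1.97 (SE 0.201, adjusted p = 0.00012). Irf7, the transcription factor that amplifies interferon alpha production, was at 6.50 and 6.59, 6.31 and 6.20, 5.01 and 5.37, and 5.54 and 5.19, and fell by 1.36 (SE 0.190, adjusted p = 0.0010). For both genes the OMsup arrays were below every array without OMsup.

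Isg15, the ubiquitin-like modifier, was at 8.23 and 8.08, 7.50 and 7.74, 6.97 and 7.26, and 6.82 and 6.82, and fell by 1.04 with OMsup (SE 0.170, adjusted p = 0.0029). The chaperone gene Rtp4 fell by 0.91 (adjusted p = 0.044). Of the subunits of ISGF3, Stat2 stood at 6.93 and 6.72, 6.83 and 6.70, 6.86 and 6.92, and 7.16 and 7.02. Its untreated and OMsup arrays overlapped, and the change with OMsup was 0.06 (95% interval -0.30 to 0.43, adjusted p = 0.88). Irf9 (-0.38, adjusted p = 0.13), Ifi35 (-0.63, adjusted p = 0.052) and Trim30a (-0.21) did not pass. Irf1, a transcription factor of the interferon gamma response, was at 11.28 and 11.19, 11.03 and 11.19, 11.26 and 11.59, and 11.35 and 11.85, a difference of 0.19 with OMsup that did not pass either (95% interval -0.19 to 0.57).

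Cxcl10, which encodes a chemokine that draws T cells through CXCR3 and is induced by both kinds of interferon, was lower with each agent. It stood at 6.69 and 6.86 in untreated cells, 5.71 and 5.97 with ATRA, 4.51 and 4.85 with OMsup and 4.77 and 4.73 with ATRA+OMsup. It fell by 2.09 with OMsup (SE 0.180, adjusted p = 3.5e-05), and the 4 arrays with OMsup lay below the ATRA arrays as well. Of the 3 sensors, Dhx58 (LGP2, which binds viral RNA in the cytosol) fell by 0.68, and Zbp1 (-0.04) and Eif2ak2 (PKR, -0.22) did not pass. Of the 3 ADP-ribosylation genes, the transferase gene Parp14 fell by 0.63, and Parp9 (0.20) and Dtx3l (-0.09) did not pass.

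**Figure D2:**
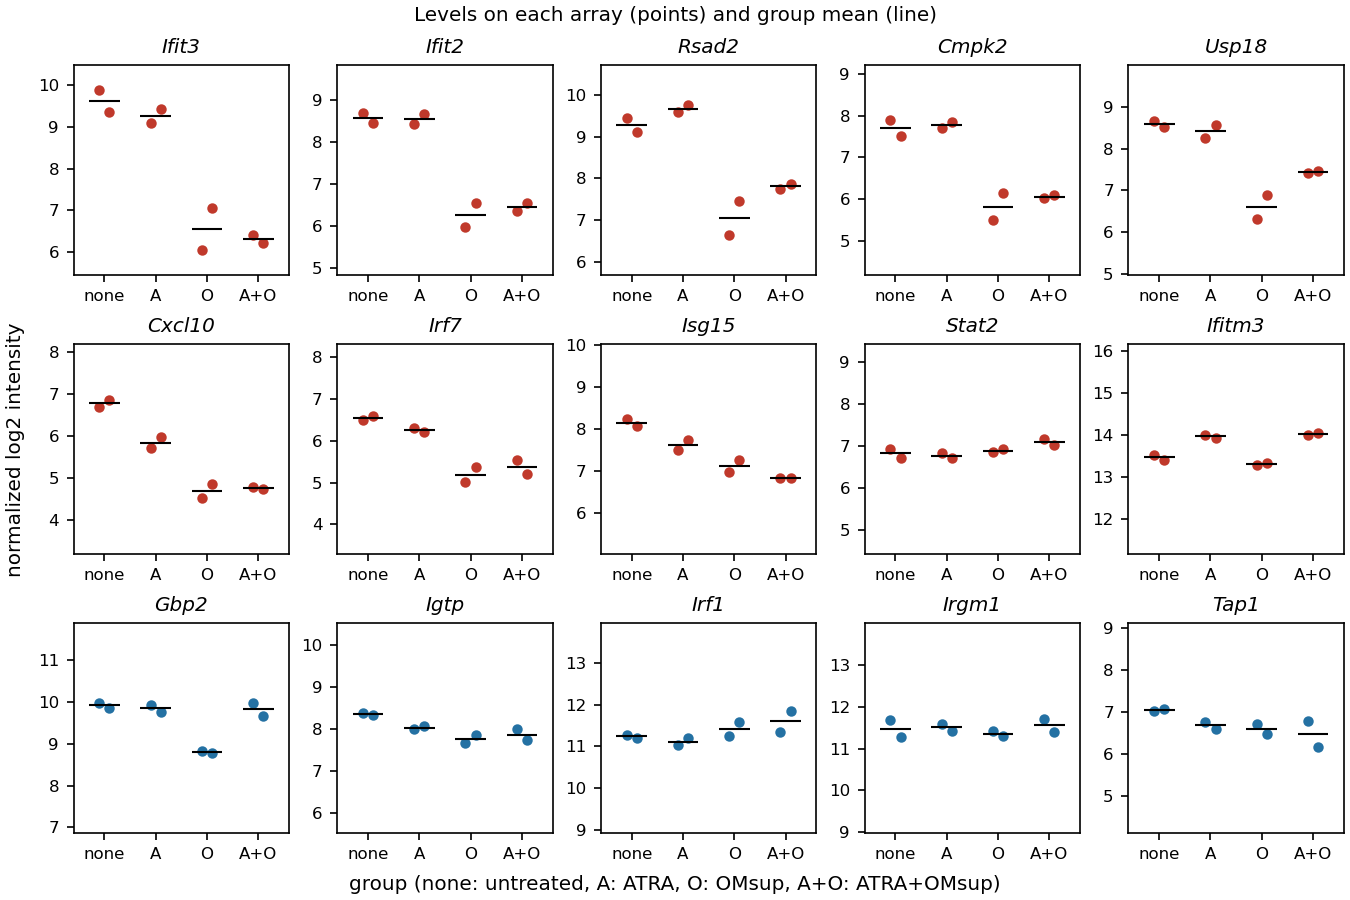
Level of 15 interferon response genes on each array (points; normalized log2 intensity, y axis) with the mean of the 2 arrays of a group (line), for untreated cells (none), ATRA (A), OMsup (O) and ATRA+OMsup (A+O); red panels are type I targets, blue panels interferon gamma targets, and y axes start at different levels. In the panels of Ifit3, Ifit2, Rsad2, Cmpk2, Usp18, Cxcl10, Irf7 and Isg15 all 4 arrays with OMsup lie below all 4 without it. In the panel of Gbp2 only the 2 arrays with OMsup alone are low.

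Among the interferon gamma targets the GTPases Gbp2 and Igtp fell and 7 of 9 did not pass. Whether the 2 classes differ in their change was not tested. Gbp2, a guanylate-binding protein that attacks the vacuoles of microbes, was at 9.97 and 9.86 in untreated cells, 9.93 and 9.76 with ATRA, 8.83 and 8.78 with OMsup and 9.97 and 9.67 with ATRA+OMsup. Only the pair with OMsup alone stood apart, and Gbp2 fell by 1.11 (SE 0.143, adjusted p = 0.00059). A second probe of Gbp2, about 5 on the log2 scale and thus near background, changed by -0.41 and did not pass (adjusted p = 0.41). Igtp, an immunity-related GTPase, was at 8.38 and 8.34, 7.99 and 8.08, 7.67 and 7.86, and 7.99 and 7.74, and fell by 0.60 (adjusted p = 0.035).

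For Irgm1, another immunity-related GTPase, the probes disagreed. The brighter probe gave 11.68 and 11.27, 11.59 and 11.42, 11.41 and 11.31, and 11.72 and 11.39. Its untreated and OMsup arrays overlapped, and the change with OMsup was -0.12 (adjusted p = 0.75). The dimmer probe, 7.79 on average, changed by -0.84 (adjusted p = 0.011). The peptide loading genes did not pass: Tap1, a subunit of the peptide transporter, was at 7.03 and 7.07, 6.77 and 6.60, 6.71 and 6.47, and 6.79 and 6.18 (change with OMsup -0.46, adjusted p = 0.25), Tap2 changed by 0.36 and Tapbp (tapasin) by -0.21. Over the 17 members with more than 1 probe above background, 16 of 23 other probes had an OMsup change of the same sign as the brightest.

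Of the 18 falls, 11 passed under each of 16 other settings of background, normalization, filter, fit and left-out arrays: Ifit2, Ifit3, Rsad2, Cxcl10, Isg15, Irf7, Oasl1, Mx2, Usp18, Gbp2 and Cmpk2. The count was 11 without untreated replicate 1 and 12 without untreated replicate 2 or OMsup replicate 1. Between the 2 OMsup arrays the median gap was 0.27 over the members and 0.19 over all features, and the widest gap was 0.98, for Ifit3. In replicate 2 of OMsup 30 of 40 members were higher, as were 30 with ATRA, 11 in untreated cells and 22 with ATRA+OMsup. The share of all features higher in replicate 2 was not counted. Of 7 granulocyte markers, all above background, 1 rose and 3 fell with OMsup (4.68% and 4.67% of all features). These markers had a summed intensity of 1257 to 1672 in untreated cells, 770 to 872 with ATRA, 1656 to 2013 with OMsup and 1235 to 1488 with both. For plasmacytoid dendritic cells, known as strong producers of interferon alpha, 2 of 5 markers (Siglech and Tcf4) were above background, with sums of 1320 to 1499, 1586 to 1659, 1576 to 1670 and 1677 to 1914 in the same order, while Ccr9, Ly6d and Klk1 were not above background. The part of these cells in the result was not tested.

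Promoter sequences are shown for the 3 type I targets with the largest falls and for Gbp2, the interferon gamma target with the largest fall. They show where letters of the element that ISGF3 binds occur. Being picked for their falls, these windows cannot show whether a fall went with the element. They are RefSeq windows of build GRCm38.p6, from 250 bases before to 50 after the start of a transcript, 5′ to 3′ on the gene's strand. Capitals mark matches to the ISRE core, written here as GAAA, any 2 bases and GAAA again, on either strand.
Ifit3, chr19:34583279-34583578, plus strand: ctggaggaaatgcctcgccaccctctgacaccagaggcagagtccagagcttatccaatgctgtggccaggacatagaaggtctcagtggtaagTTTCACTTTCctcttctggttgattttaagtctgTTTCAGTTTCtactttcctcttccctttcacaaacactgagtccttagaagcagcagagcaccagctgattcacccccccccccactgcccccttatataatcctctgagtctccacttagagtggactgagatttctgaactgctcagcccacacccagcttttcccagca
Ifit2, chr19:34550444-34550743, plus strand: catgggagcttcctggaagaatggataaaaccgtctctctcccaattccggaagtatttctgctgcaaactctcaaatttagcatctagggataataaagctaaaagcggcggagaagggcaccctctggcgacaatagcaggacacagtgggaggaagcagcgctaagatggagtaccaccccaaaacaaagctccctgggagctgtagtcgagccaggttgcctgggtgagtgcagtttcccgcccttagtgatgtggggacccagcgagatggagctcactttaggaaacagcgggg
Rsad2, chr12:26456403-26456702, minus strand: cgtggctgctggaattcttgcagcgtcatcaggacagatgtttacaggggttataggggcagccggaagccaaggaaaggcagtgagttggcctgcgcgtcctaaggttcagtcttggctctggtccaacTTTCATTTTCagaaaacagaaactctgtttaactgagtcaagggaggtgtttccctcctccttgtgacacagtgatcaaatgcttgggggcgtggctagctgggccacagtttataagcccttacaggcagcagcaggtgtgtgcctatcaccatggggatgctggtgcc
Gbp2, chr3:142620413-142620712, plus strand: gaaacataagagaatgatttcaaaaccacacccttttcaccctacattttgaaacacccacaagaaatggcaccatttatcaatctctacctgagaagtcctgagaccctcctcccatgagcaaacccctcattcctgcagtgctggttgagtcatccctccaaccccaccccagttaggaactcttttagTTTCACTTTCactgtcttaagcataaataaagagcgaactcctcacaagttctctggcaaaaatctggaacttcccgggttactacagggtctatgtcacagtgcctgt
Ifit3 held 2 matches, which begin 156 and 122 bases before the start, Rsad2 held 1 at 120 bases before and Gbp2 held 1 at 59 bases before. Ifit2 held none in either of its 2 windows, which says only that these letters are not there.

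Of the 49 members 38 had a window, and 19 of these (50%) held an ISRE core match, against 3.99% of the 27025 genes with a window. The share was the same in both classes, 14 of 28 type I and 5 of 10 interferon gamma targets. A GAS match, TTCNNNGAA, occurred in 10 of 38 members (26.3%) and in 9.55% of all genes; 6 members held both motifs, and in 2 of them the matches shared bases. Of the 15 tested members with an ISRE core match 7 fell with OMsup (median change -0.26), and of the 15 without one 6 fell (median -0.54). A match is a string of letters, and no binding was measured.

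With ATRA alone few of these genes passed. Of the 40 members, Ifitm3 rose and Cxcl10 fell, where 4.06% of all features passed (2.35% as higher, 1.72% as lower), and 38 did not pass. Ifitm3, which blocks the entry of viruses through endosomes, was at 13.53 and 13.42 in untreated cells, 14.01 and 13.94 with ATRA, 13.28 and 13.34 with OMsup, and 14.00 and 14.06 with ATRA+OMsup. All 4 arrays with ATRA were above all 4 without it, and the rise with ATRA alone was 0.50 (SE 0.093, adjusted p = 0.011). Cxcl10 fell by 0.93 (SE 0.180, adjusted p = 0.014), from the values given above.

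The median change with ATRA was -0.18 over the 40 members, -0.19 over type I targets and -0.09 over interferon gamma targets. In limma's test 6 of the 40 members had an unadjusted p under 0.05, as did 1757 of all 12793 features. The change was negative in 30 of the 40 members and in 6229 of the 12793 features. In 16 members both ATRA arrays lay below both untreated arrays, which was so for 20.9% of all features. The schlafen gene Slfn2 (-0.58, adjusted p = 0.058), Oas3 (-0.60, adjusted p = 0.12) and Isg15 (-0.53, adjusted p = 0.14) came nearest after the pair that passed. For Ifit2 the 95% interval of the ATRA change was -0.48 to 0.43. Leaving out either untreated array or ATRA replicate 1 ended both calls, and without ATRA replicate 2 only Cxcl10 passed; scaling the arrays to a common median or fitting without a trend ended the call of Ifitm3.

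**Figure D3:**
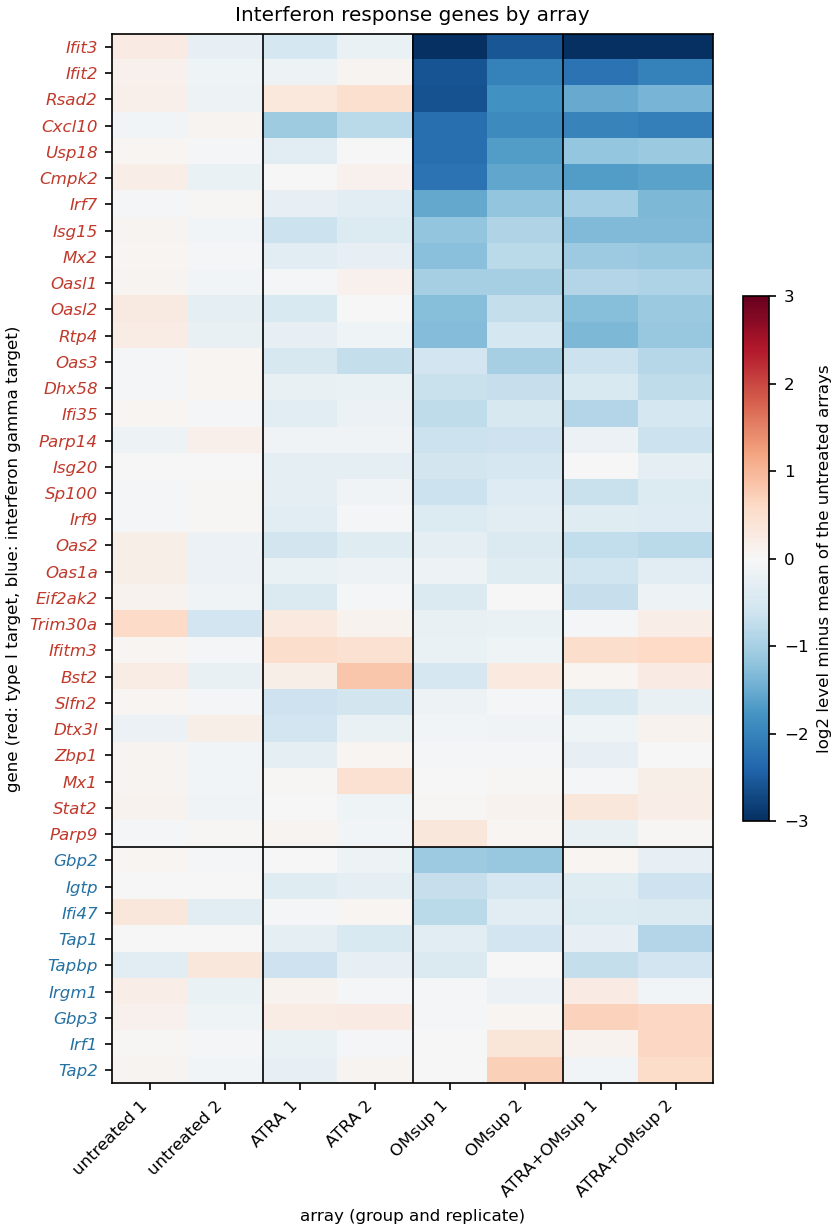
Level of the 40 tested interferon response genes (rows; red names are type I targets, blue names interferon gamma targets) on each of the 8 arrays (columns), as the log2 difference from the mean of the 2 untreated arrays, with the colour scale ending at 3 in each direction. The top rows are blue in all 4 columns with OMsup. In the columns with ATRA alone most of the top rows are near white, while Cxcl10 is blue there too. Ifitm3 is red in the 4 columns with ATRA.

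Type I targets were also low with both agents. Against untreated cells 16 members fell and 2 rose with ATRA+OMsup, where 15.1% of all features passed (7.26% as lower, 7.88% as higher). All 16 falls were type I targets: Ifit3 was 9.79-fold lower (change -3.29, SE 0.289, adjusted p = 2.4e-05), Ifit2 4.33-fold, Cxcl10 4.06-fold and Cmpk2 3.11-fold. Rsad2 fell by 1.46, Isg15 by 1.33, Irf7 by 1.18, Oasl2 by 1.19, Usp18 by 1.14, Mx2 by 1.11 and Oasl1 by 0.90. Rtp4 was not above background on either array and was thus at least 2.03-fold lower (adjusted p = 0.0060). Rtp4 entered the test only through untreated, ATRA and OMsup arrays, so its call comes from a gene let in by groups where it was higher. Oas2 (0.77), Oas3 (0.75), Ifi35 (0.70) and Dhx58 (0.61) fell by the values in brackets. Ifitm3 rose by 0.56 and Gbp3, a guanylate-binding protein, by 0.65 (adjusted p = 0.00998). The median change was -0.61 over type I targets and -0.09 over interferon gamma targets, and the comparison shares its untreated arrays with those above.

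The effect of OMsup on cells that also had ATRA takes its group means from other arrays than the effect of OMsup alone. The tests are still not independent, because all groups were fitted together and share each gene's estimate of spread and the detection filter. Calls shared by these comparisons are therefore no fully independent repeat. Between ATRA+OMsup and ATRA, 12 members were lower and none higher, where 10.4% of all features passed (5.42% as lower, 4.98% as higher). All 12 were type I targets, and all 12 were also among the 18 that fell with OMsup alone, which is 100% of the first list and 66.7% of the second; over all features the shared lower calls were 54.9% and 63.7% of the lists. Ifit3 fell by 2.93, Ifit2 by 2.09, Rsad2 by 1.85, Cmpk2 by 1.71, Cxcl10 by 1.09, Usp18 by 0.96, Oasl2 by 0.97, Oasl1 by 0.94, Irf7 by 0.89, Mx2 by 0.83 and Isg15 by 0.80, and Rtp4 was at least 1.78-fold lower. As above, Rtp4 was let into the test by groups other than ATRA+OMsup. The other 6, namely Gbp2, Igtp, Isg20, Oas3, Dhx58 and Parp14, did not pass here, and that their response differed was tested only by the interaction given below. Without ATRA replicate 2 the count was 6. The direct comparison of OMsup with ATRA gave 11 lower members, 10 type I targets and Gbp2, where 13.4% of all features passed (7.11% as lower, 6.25% as higher).

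Adding ATRA to OMsup raised 4 members and lowered none, where 4.49% of all features passed, 2.73% as higher and 1.77% as lower. They were Gbp2, Usp18, Ifitm3 and Gbp3, and the median change over the 40 members was 0.07. Gbp2 rose by 1.02 (2.03-fold, SE 0.143, adjusted p = 0.0018), so that both ATRA+OMsup arrays lay above both OMsup arrays, while against untreated cells the difference was -0.09 (95% interval -0.41 to 0.23). Ifitm3 rose by 0.72 (SE 0.093, adjusted p = 0.0011) and Usp18 by 0.83 (SE 0.201, adjusted p = 0.043), with Usp18 still below untreated cells.

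Gbp3 was at 8.52 and 8.28 in untreated cells, 8.63 and 8.66 with ATRA, 8.37 and 8.45 with OMsup, and 9.09 and 9.01 with ATRA+OMsup, where both arrays were above all others. It rose by 0.64 over OMsup (SE 0.142, adjusted p = 0.028), and its second probe rose by 0.89. For Rsad2 both ATRA+OMsup arrays were above both OMsup arrays, with a difference of means of 0.75 that did not pass (adjusted p = 0.12), and Ifit3 (-0.24), Ifit2 (0.20), Cxcl10 (0.07) and Isg15 (-0.29) did not pass. The calls of Gbp2 and Ifitm3 passed under each of the 16 other settings, that of Usp18 failed in 10 and that of Gbp3 in 8. The count was 2 without ATRA replicate 1, ATRA replicate 2, OMsup replicate 1, ATRA+OMsup replicate 1 or ATRA+OMsup replicate 2. The second probes of Gbp2 (0.59) and Usp18 (0.50) did not pass.

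Whether the effect of ATRA depended on OMsup was tested with the interaction, the ATRA change with OMsup minus the ATRA change without it. No member passed, where 0.242% of all features did, and 5 members had an unadjusted p under 0.05 in limma's test: Gbp2 (1.09, SE 0.202, adjusted p = 0.082), Usp18 (1.01, adjusted p = 0.40), Cxcl10 (1.00, adjusted p = 0.27), Oas3 (0.63) and Isg20, for which no value is given because it was not above background with OMsup or with ATRA. Over all 12793 features 670 had an unadjusted p under 0.05 in limma's test of the interaction. For Gbp2 the ATRA change was -0.07 without OMsup and 1.02 with it. For Cxcl10 it was -0.93 without OMsup and 0.07 with it, where the level was already near background. The interval of the interaction reached from -0.78 to 1.03 for Ifit3 and from -0.42 to 0.87 for Ifit2. Gbp2 passed without ATRA+OMsup replicate 2 (adjusted p = 0.037), and its second probe gave 0.45.

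**Figure D4:**
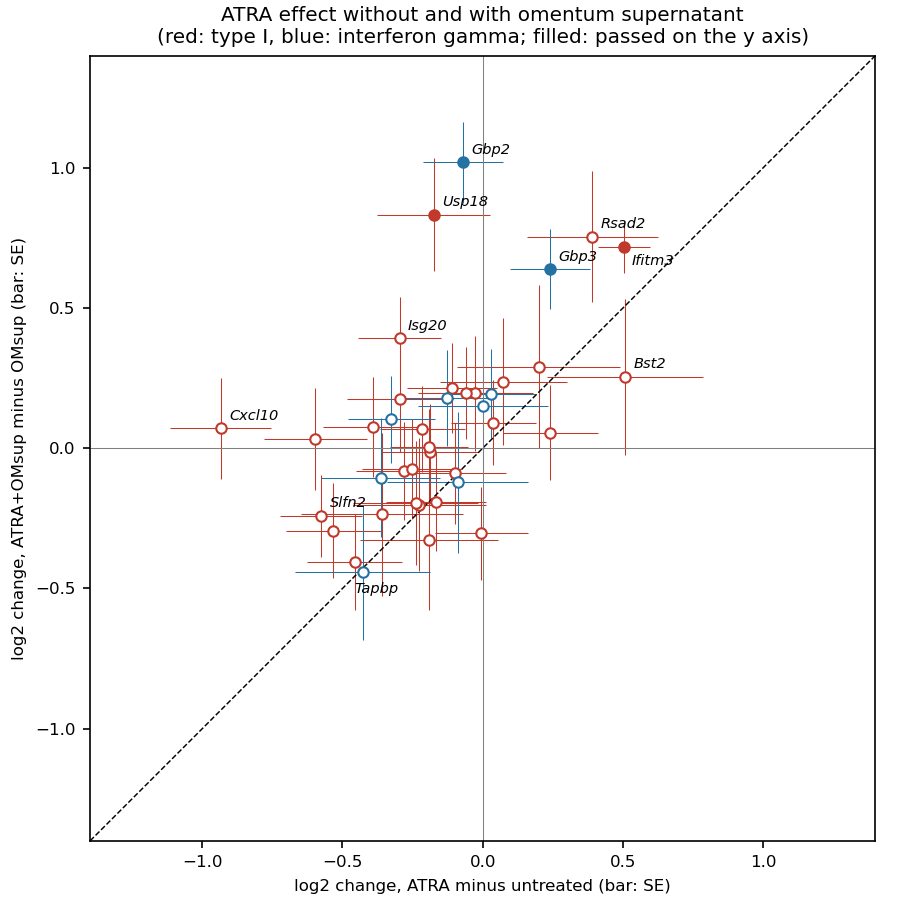
ATRA change of the 40 tested interferon response genes without OMsup (x axis, ATRA minus untreated, log2) and with OMsup (y axis, ATRA+OMsup minus OMsup, log2), with SE bars; type I targets are red, interferon gamma targets blue, and filled points passed on the y axis. Gbp2 at -0.07 and 1.02, Usp18 at -0.17 and 0.83 and Cxcl10 at -0.93 and 0.07 lie farthest above the dashed line of equal change.

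The interferon genes themselves were hardly seen. Of 21 listed ligand genes 20 had a probe and 5 were tested. Ifnb1, Ifng and Il27 were not above background on any array, so their own change could not be followed. Ifna1, Ifna6, Ifnab and Ifnz did not pass in any of the 6 pairwise comparisons. Ebi3, which encodes a subunit of the cytokine interleukin 27 and not an interferon, was at 10.20 and 10.41 in untreated cells and 8.86 and 8.65 with OMsup, and fell by 1.55 (adjusted p = 6.6e-05). Among the receptors Ifnar1 was not above background, and Ifnar2 (0.06), Ifngr1 (0.20) and Ifngr2 (0.22) did not pass with OMsup; Ifngr1 was higher with ATRA+OMsup than in untreated cells (0.42, adjusted p = 0.037).

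Of the 9 tested kinases and transcription factors, Irf5 fell by 1.10 with OMsup and Nlrc5, the activator of MHC class I genes, rose by 0.97. Of all features 4.67% fell and 4.68% rose with OMsup. Jak1 (0.16), Jak2 (0.33), Tyk2 (-0.20) and Irf3 (-0.02) did not pass. Irf8, a transcription factor of the macrophage lineage, was at 8.39 on average in untreated cells, 9.09 with ATRA, 8.26 with OMsup and 9.11 with both. It was higher with ATRA, by 0.70 alone (adjusted p = 0.023) and by 0.85 over OMsup (adjusted p = 0.0068).

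Of the 7 tested inhibitors of the pathway, 2 rose and 1 fell with OMsup, where 4.68% and 4.67% of all features did. Socs3, which encodes a feedback inhibitor induced through STAT3 by cytokines such as interleukin 6, was at 6.14 and 5.71 in untreated cells, 5.16 and 5.26 with ATRA, 11.19 and 11.35 with OMsup and 10.78 and 10.94 with ATRA+OMsup. It was 40.7-fold higher with OMsup (adjusted p = 1.1e-07) and lower with ATRA alone (-0.72, adjusted p = 0.043). The phosphatase gene Ptpn1 rose by 0.89 and Ptpn6 fell by 0.70, while Socs1 was above background on 1 array and got no test. Of 14 tested sensors and adaptors, 2 rose and 1 fell with OMsup (4.68% and 4.67% of all features). Sting1, the adaptor of the cytosolic DNA sensor, rose by 1.28 and Myd88 by 0.69. Ikbke, a kinase that acts on IRF3 and IRF7, was at 8.41 and 8.61, 9.97 and 9.73, 7.48 and 7.81, and 9.63 and 9.26: it fell by 0.86 with OMsup, rose by 1.34 with ATRA and rose by 1.80 when ATRA was added to OMsup (adjusted p = 0.00019).

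Targets of interferon outside the 49 members were counted from longer lists, which were chosen with results of these data known and are no independent support. Of 35 other type I targets tested, 10 fell and 2 rose with OMsup (4.67% and 4.68% of all features), with a median of -0.28. Ifit1bl1 was lower by a factor of at least 2.56 (adjusted p = 9.1e-05), not being above background with OMsup, Ifi27l2a fell by 1.32 and Phf11d by 1.20, while the chemokine gene Ccl12 rose by 1.14 and Ifitm2 by 0.49. With ATRA+OMsup against untreated cells 10 fell and 7 rose (7.26% and 7.88% of all features). Adding ATRA to OMsup raised 5 (2.73% of all features), among them Phf11a by 2.26 and Ccl7 by 1.62, and lowered Samd9l by 1.19. Ccl2, also raised, was not above background with OMsup and was at least 2.07-fold higher. Ccl2 entered the test only through arrays with ATRA, and Ifit1bl1 only through arrays without OMsup. Their calls thus come from genes let in by the groups where they were high. Of 21 other interferon gamma targets tested, Irgm2 fell by 0.66 with OMsup, and Nampt (1.17) and Ifi30 (0.70) rose (4.67% and 4.68% of all features). With ATRA+OMsup against untreated cells 4 of the 21 fell and 6 rose (7.26% and 7.88% of all features). Against ATRA none fell and 5 rose (5.42% and 4.98% of all features). Fcgr4, an activating Fc receptor gene, rose by 1.16 with ATRA and by 1.46 when ATRA was added to OMsup, and Ciita, the activator of MHC class II genes, fell by 0.91 and 1.10.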

How the data were processed

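Gene expression was measured in 8 macrophage samples, 2 in each of 4 groups, on an Illumina bead array with 45281 probes. Per the labels, RNA was extracted with RNeasy micro columns and DNase and made into biotin-labelled cRNA with the Ambion MessageAmp kit. The authors' deposited table held a linear intensity per probe without background subtraction, as its values show, and per the file headers a detection p-value for each array. A deposited normalized matrix, quantile-normalized linear intensity, served as an alternative. For both tables the software was not given in the sources used here. Precision is limited by the number of arrays.

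In limma 3.58.1 (R 4.3.3), neqc corrected background with controls inferred from the detection p-values, added an offset of 16 and quantile-normalized to log2, which understates changes of dim probes. A filter kept the 18503 probes whose detection p was under 0.05 on 2 or more arrays. The brightest kept probe stood for a gene, which gave 10068 named genes and 2725 unnamed probes. Symbols came from the platform annotation. One lmFit model of group means covered all 8 arrays, eBayes with a trend gave the tests, and within each of 7 comparisons the p-values were adjusted after Benjamini and Hochberg. The scripts were tested on simulated data.

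Where a group was not above background, a bound is given: the bright group's mean against the mean of the higher of the lowest detected signal of each array and the dim probe's own value. The members, the split into classes and all lists, those of the pathway and of cell type markers included, were chosen with earlier results of these data known. Values on every array are given for the 8 largest falls and 4 largest rises with OMsup and the 4 largest of each with ATRA, alone or over OMsup, among members that passed without overlap of the groups, and for Rsad2, Isg15, Cxcl10, Irf7, Stat2, Usp18, Oasl1, Irf1, Gbp2, Irgm1, Igtp and Tap1, called or not; pathway genes were named for their role or as the 3 largest called per list. Marker lists for fibroblasts (2 of 6 markers with a probe above background), adipocytes (1 of 4), B cells (2 of 4) and dendritic cells (2 of 6) were counted as well. Alternatives were other background, normalization, filter and fit settings, left-out arrays, the replicate number as a block, other probes and a 2-fold limit.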

Additional observations from a re-analysis of the deposited data

How the results depend on the processing

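The direction of the members' change with OMsup did not turn under any setting of background, normalization, filter, fit or left-out array for the genes that passed. With a 2-fold limit added, 10 members passed for OMsup against untreated, 11 for ATRA+OMsup against untreated, 6 for ATRA+OMsup against ATRA, 1 for ATRA+OMsup against OMsup and 0 for ATRA against untreated. Fitting without a trend left 1 member for ATRA against untreated, and fitting only the groups compared left 2 for ATRA+OMsup against OMsup. Leaving out 1 array at a time gave 0 to 3 members for ATRA against untreated, 11 to 19 for OMsup, 13 to 21 for ATRA+OMsup against untreated, 6 to 12 against ATRA, 2 to 4 against OMsup, 10 to 14 for OMsup against ATRA and 0 to 1 for the interaction; the lone array left in a group was assumed to vary like the others. Other probes of a gene did not all share the sign of the brightest, and the dimmer probe of Irgm1 passed with the sign turned, at -0.90 (adjusted p = 0.0048) for ATRA+OMsup against untreated and -0.66 (adjusted p = 0.036) against ATRA. Scaling arrays to a common median moved the median of all features by over 0.1 only for OMsup against ATRA, to 0.10.

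With the replicate block, 1 member, Gbp2, passed in the interaction (adjusted p = 0.012). The labels give only a shared number. Over the 6 pairs of groups, the differences of replicate 1 minus replicate 2 correlated from -0.01 to 0.53. Between ATRA, OMsup and ATRA+OMsup they correlated from 0.43 to 0.53, and between untreated cells and these groups from -0.01 to 0.21. As not all pairs correlated, the numbers were not taken to pair the samples, though the treated arrays shared part of their replicate difference. The block moved no other count by more than 1.5 times. A chip as a block was not run, since the files name no chip. Genes near background, such as Isg20, Mx1 and Oas3, are where the signal limits a change most.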
